A study of Mus musculus with 2 samples.

Results

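The ADP-ribosyltransferases Parp8, Parp9, Parp10, Parp11, Parp12 and Parp14, the zinc-finger antiviral protein gene Zc3hav1 and the ubiquitin ligase gene Dtx3l were followed across tumour-infiltrating leukocytes. They were taken by symbol and are 8 of the 32432 genes counted. The mice compared had both Trex1 alleles floxed or, as controls, only 1. The leukocytes came from B16-F10 melanomas, a mouse tumour line of which 1000 cells had been placed intradermally in both legs of male mice of 8 to 12 weeks. The Trex1 iKO group was Trex1 fl/fl R26CreERT2, the Trex1 control group was Trex1 wt/fl R26CreERT2, and both received tamoxifen (1 mg on 3 days from day 5) before tumours were taken on day 14. The controls therefore carried 1 floxed allele, the same Cre and the same drug. R26CreERT2 is driven from a broadly active locus, so deletion was not limited to leukocytes of the host, and the injected tumour cells carried none of these alleles. Live CD45+ cells were sorted and 4 hashtagged samples per genotype were run as 1 droplet pool per genotype. Genotype and pool cannot be told apart in any comparison that follows, and the labels do not say that each hashtag marks 1 mouse, so that p-values measure only the spread between these samples.

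TREX1 is an exonuclease that removes cytosolic DNA; without it DNA can engage cGAS and STING and lead to type I interferon. Among the genes that interferon induces are several PARPs. Most of these enzymes attach a single ADP-ribose to their targets, and macrodomain proteins read or remove the mark. PARP9 and DTX3L form a complex that couples ADP-ribosylation to ubiquitin. PARP14 carries macrodomains of its own and was first described as a cofactor of STAT6. ZC3HAV1 (ZAP) binds CpG-rich viral RNA, has no ADP-ribosyltransferase activity and works with TRIM25 and the nuclease KHNYN, and PARP12 is its zinc-finger relative with an active catalytic domain.

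In the gene annotation used, Parp9 (plus strand) and Dtx3l (minus strand) lie head to head on chromosome 16, with starts 681 bases apart and the first stretches of both genes overlapping, and Parp14 (minus strand) lies in the same neighbourhood. Parp11, Parp12 and Zc3hav1 are on chromosome 6, Parp8 on chromosome 13 and Parp10 on chromosome 15. The last 300 bases of Parp10, where reads of transcript ends fall, overlap exons of Plec on the same strand, so Parp10 counts are uncertain where reads could be split between these genes. Windows of 250 bases before to 50 bases after the start were found for 5 of the 8 genes in the RefSeq promoter table (build GRCm38.p6), namely Parp8, Parp11, Parp12, Dtx3l and Zc3hav1. They were searched on both strands for the core of the interferon-stimulated response element (GAAANNGAAA, or TTTCNNTTTC on the other strand), a motif of interferon-induced promoters, and for the gamma-activated site (TTCNNNGAA, the same on both strands). The first core was in 3.443% of all 32851 such windows and the second in 8.298%. Among the windows of the 5 genes, both were found in 1 of the 2 windows of Parp11 and neither in the others; a match is a description of letters, not a site of binding. The windows shown are that of Parp11 (chr6:127446590-127446889, plus strand), as it is the only one with matches, that of Dtx3l (chr16:35938978-35939277, minus strand), as it faces Parp9, and that of Parp12 (chr6:39118300-39118599, minus strand), the gene with the largest genotype difference in neutrophils. Capitals mark the overlapping response element and gamma-activated core, whose first bases lie 44 and 37 bases before the start.
Parp11: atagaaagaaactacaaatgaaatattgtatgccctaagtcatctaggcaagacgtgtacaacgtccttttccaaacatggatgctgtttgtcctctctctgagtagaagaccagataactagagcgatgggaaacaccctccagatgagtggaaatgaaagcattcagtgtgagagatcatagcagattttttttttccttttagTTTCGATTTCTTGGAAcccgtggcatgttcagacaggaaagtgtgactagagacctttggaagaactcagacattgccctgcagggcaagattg
Dtx3l: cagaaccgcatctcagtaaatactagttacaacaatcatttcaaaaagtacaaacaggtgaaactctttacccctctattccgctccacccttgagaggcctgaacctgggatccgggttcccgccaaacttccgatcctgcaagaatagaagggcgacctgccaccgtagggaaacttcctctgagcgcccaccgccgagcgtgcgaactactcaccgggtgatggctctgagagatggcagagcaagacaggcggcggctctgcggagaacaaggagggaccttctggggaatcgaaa
Parp12: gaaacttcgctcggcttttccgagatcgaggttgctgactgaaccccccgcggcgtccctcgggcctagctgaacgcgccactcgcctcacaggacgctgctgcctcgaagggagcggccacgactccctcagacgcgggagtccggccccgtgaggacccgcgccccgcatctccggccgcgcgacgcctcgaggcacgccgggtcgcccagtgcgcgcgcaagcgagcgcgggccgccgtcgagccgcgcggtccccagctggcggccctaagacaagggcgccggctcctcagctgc

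After filtering, 22490 cells were kept, 1304 to 5901 per sample, with median UMI (unique molecule) counts per cell of 13048 to 14677 in iKO and 6557 to 11931 in control samples. Trex1 itself had 2 UMIs in all, both in control sample 2, which is too few to check the genotype labels. Cells were assigned to a type by fixed markers, which gave 4674 CD8 T, 602 CD4 T, 469 Treg, 1198 other T, 886 B, 1358 neutrophil, 8429 monocyte/macrophage, 226 cDC2 and 451 mature DC cells that were tested, and 2304 cells with markers of 2 lineages were left out. Levels are given as CPM, the UMIs of a gene scaled to 1000000 UMIs of all genes, from counts summed over the cells of 1 type in 1 sample. For all genes but the cell type markers, each sample's total was first adjusted by a TMM factor. That factor scales samples to each other and was estimated within each type. A gene was called where edgeR's quasi-likelihood test gave an adjusted p (Benjamini-Hochberg over all genes tested in that type) under 0.05, and differences are log2 of iKO over control with a standard error. Markers listed for other types were also counted within gated types. Summed monocyte/macrophage markers were at 215 to 345 CPM in iKO and 308 to 382 CPM in control CD8 T cells. Neutrophil markers in CD8 T cells were at 109 to 130 CPM in iKO and 274 to 413 CPM in control, and T cell markers in monocyte/macrophages at 65.5 to 78.6 CPM in iKO and 39.6 to 49.8 CPM in control. The source of these UMIs and their part in the differences below were not tested.

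In control tumours the 8 genes had unlike distributions over the types, here the 9 that were tested. Zc3hav1 was highest in T cells, at 226 ± 38.8 CPM in Treg (SD, n = 3), 217 ± 24.5 in CD4 T and 149 ± 39.9 in CD8 T cells (n = 4 each), and lowest in monocyte/macrophages at 63.2 ± 12.7 CPM. Parp12 was highest where Zc3hav1 was lowest, with 31.4 ± 6.45 CPM in monocyte/macrophages, 22.6 ± 17.1 in cDC2 and 18.3 ± 4.72 in mature DC against 4.56 ± 1.62 CPM in CD8 T cells. In B cells 2 of the 4 control samples had no Parp12 UMI. For both genes the types next to each other in the order of means overlapped in their ranges over samples, so that only the ends of the order stand apart.

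Parp8 was highest in control mature DC at 66.7 ± 4.77 CPM, where the 4 samples (63.1 to 73.7 CPM) lay above all samples of cDC2, the next type, at 46.5 ± 8.54 CPM. It was lowest in Treg at 7.84 ± 2.77 CPM (n = 3), below every sample of neutrophils, the type ranked above it at 21.6 ± 5.53 CPM. Parp9 had its highest mean in Treg, at 55.5 ± 4.67 CPM (n = 3), above all samples of mature DC (43.2 ± 2.22 CPM) but within the range of cDC2 (29.2 to 61.6 CPM), and was lowest in neutrophils at 24.1 ± 4.43 CPM. Its partner Dtx3l was also highest in Treg, at 103 ± 30.8 CPM, and lowest in B cells at 36.8 ± 6.83 CPM, with overlap of all neighbours in the order. Parp14 ran from 133 ± 43.3 CPM in Treg to 65.4 ± 19.6 CPM in B cells, Parp11 from 26.6 ± 9.05 CPM in mature DC to 5.47 ± 2.71 CPM in neutrophils, and Parp10 from 22.0 ± 6.21 CPM in other T cells to 8.16 ± 7.81 CPM in cDC2. For these 3 genes all neighbours in the order overlapped as well. CPM was not scaled across types, and the low neutrophil ranks depend on this. In edgeR's test of neutrophils against monocyte/macrophages, described below, Parp9 differed by -0.03 ± 0.19 (adjusted p = 0.889) and Parp11 by -0.18 ± 0.36 (adjusted p = 0.668).

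**Figure D1:**
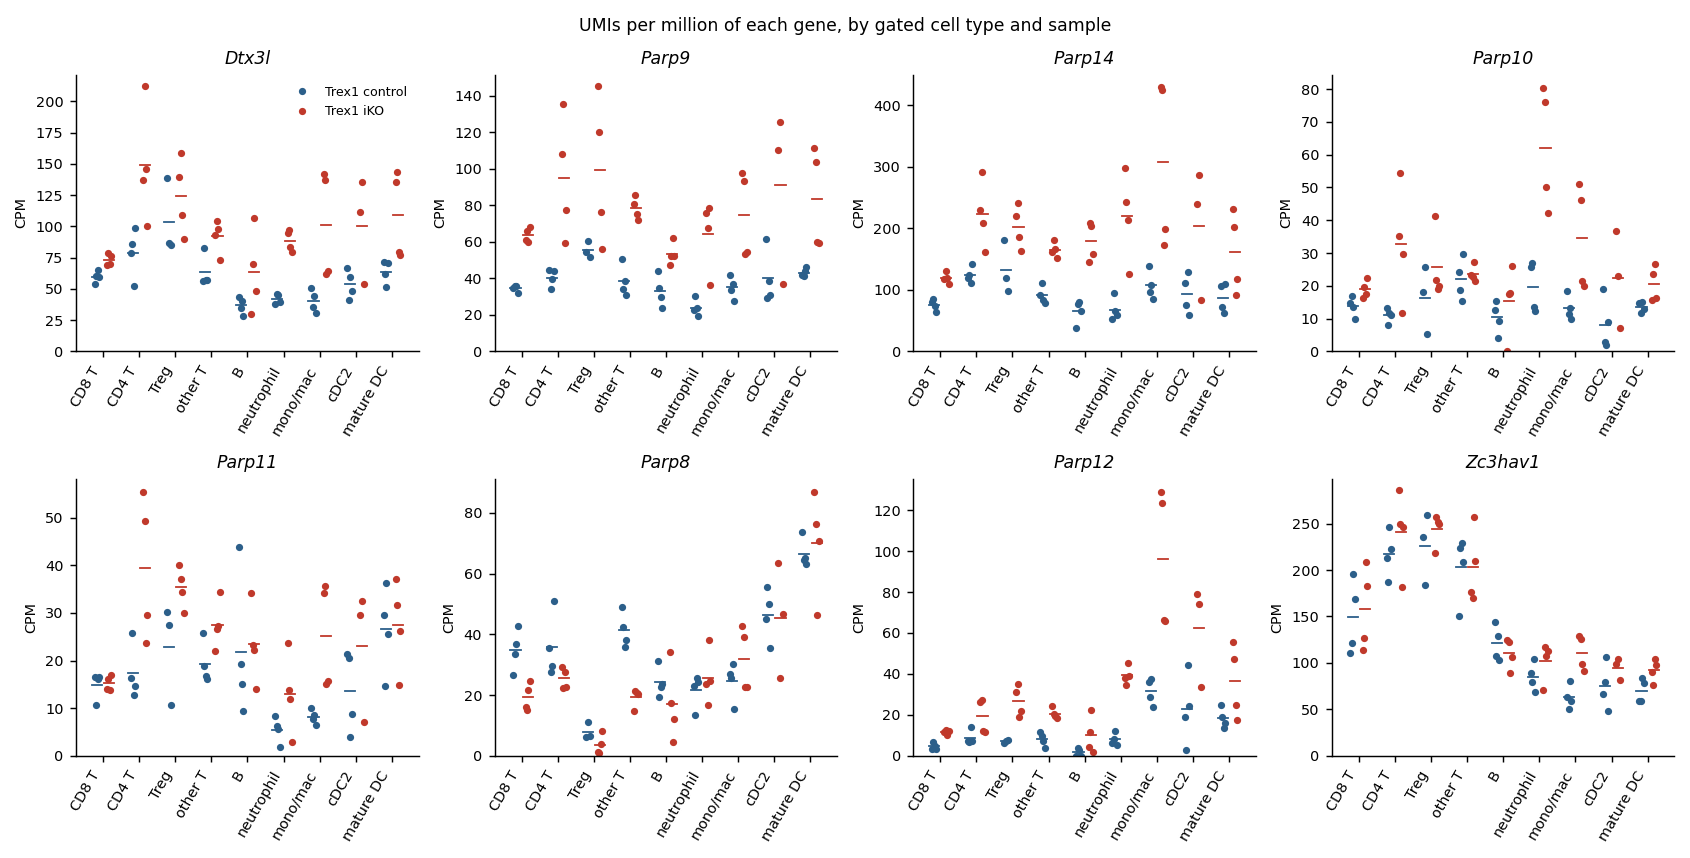
CPM (y axis, linear, from 0) of each of the 8 genes in 9 gated cell types (x axis); each point is 1 sample of Trex1 control (blue) or Trex1 iKO (red) and each bar the group mean. Zc3hav1 was highest in CD4 T and Treg cells and Parp12 in monocyte/macrophages, and Parp14 in iKO monocyte/macrophages lay between 173 and 431 CPM, above all control samples.

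Differences between types within the control samples were tested for 3 pairs, with the sample as a factor. Between CD8 T cells and monocyte/macrophages, 2 of the 8 genes were higher in CD8 T cells, Zc3hav1 by 1.00 ± 0.12 (log2 ± SE; adjusted p = 2.59e-05) and Parp11 by 0.63 ± 0.19 (adjusted p = 0.0132), beside 34.1% of all genes tested. Parp12 fell by 3.07 and Parp14 by 0.71 on the log2 scale from monocyte/macrophages to CD8 T cells (adjusted p = 3.84e-07 and 0.00032), 2 of 8 beside 34.8% of all genes called lower. Neutrophils had more Parp10 (1.05 on the log2 scale), Zc3hav1 (0.94 ± 0.14) and Dtx3l (0.60) than monocyte/macrophages, 3 of 8 beside 31.8% of all genes, and less Parp12 (-1.48 ± 0.25), 1 of 8 beside 36.3%. Between B and CD8 T cells Dtx3l was lower in B cells (-0.67), 1 of the 7 tested, beside 23.0% of all genes lower, and none of the 7 was higher, beside 21.1%. These shares are near the background, and cell types differ in most genes. The Parp11 call was lost without control sample 4 (edgeR adjusted p = 0.0592), as was that of Dtx3l in neutrophils (0.0649). The Dtx3l call between B and CD8 T cells was lost without control sample 3 (edgeR adjusted p = 0.0963). With library sizes left as summed counts, the median of all genes moved from 0.01 to 0.25 in the first pair and from -0.16 to -0.57 in the second. In the first pair that scaling raised the calls higher in CD8 T cells from 2 to 4 genes, and in the second it ended the call of Dtx3l (0.19, adjusted p = 0.37) and raised the calls lower in neutrophils from 1 to 2, with Parp14 the second.

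In monocyte/macrophages, 7 of the 8 genes were higher in iKO than in control samples, beside 5.81% of all 11674 genes tested, and none was lower, beside 5.35%. Their median difference was 1.37 on the log2 scale against -0.0013 over all genes. Parp14 had 431, 426, 173 and 200 CPM in iKO samples 1 to 4 and 139, 96.8, 108 and 86.0 CPM in control samples 1 to 4. The groups did not overlap, and iKO samples 1 and 2 stood well above iKO samples 3 and 4. The difference was 1.52 ± 0.31 (adjusted p = 0.0197).

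The Dtx3l and Parp9 pair of the E3 complex showed the same layout in monocyte/macrophages. Dtx3l had 142, 137, 61.8 and 64.7 CPM in iKO against 50.5, 35.7, 44.1 and 30.6 CPM in control, and Parp9 97.6, 93.5, 53.4 and 54.7 CPM in iKO against 42.0, 33.6, 36.9 and 27.8 CPM in control. Both rose, by 1.34 ± 0.30 (adjusted p = 0.026) and 1.10 ± 0.23 (adjusted p = 0.0198), with no overlap of the groups, a layout (every iKO sample above every control sample) that 9.95% of all genes had in this type.

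Of the zinc-finger members, Parp12 had 129, 123, 66.2 and 65.9 CPM in iKO and 36.1, 28.5, 37.4 and 23.8 CPM in control monocyte/macrophages and rose by 1.62 ± 0.26 (adjusted p = 0.00927). Zc3hav1 had 128, 126, 99.2 and 90.7 CPM in iKO and 63.3, 50.4, 80.5 and 58.7 CPM in control and rose by 0.81 ± 0.16 (adjusted p = 0.018). The change of Zc3hav1 was the smallest of the 7 called, and its lowest iKO sample was close above its highest control sample. Parp11, a mono-ADP-ribosyltransferase reported to act on the ubiquitin ligase that degrades the interferon receptor, had 34.2, 35.8, 15.0 and 15.6 CPM in iKO against 10.1, 7.74, 8.57 and 6.43 CPM in control and rose by 1.64 ± 0.32 (adjusted p = 0.0175). Parp10 rose by 1.40 ± 0.34 (adjusted p = 0.0329), from 13.3 ± 3.79 to 34.6 ± 16.2 CPM (SD, n = 4). Parp8, among the least studied of the family, did not pass, at 42.7, 39.2, 22.7 and 22.6 CPM in iKO and 26.9, 25.7, 30.4 and 15.3 CPM in control (0.39 ± 0.27, adjusted p = 0.363), and here the groups overlapped.

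The number of these calls changed when single samples were left out. All 8 genes were higher in iKO samples 1 and 2 than in iKO samples 3 and 4 in monocyte/macrophages, with ratios of the means from 1.34 (Zc3hav1) to 2.34 (Parp10). In CD8 T cells none of the 8 had this order, and in neutrophils 4 had it. Samples 1 and 2 were also the larger iKO libraries, with 3869 and 5901 kept cells against 1304 and 2457, and their median UMIs per cell were 14452 and 14812 against 16358 and 16497 in monocyte/macrophages but 17866 and 14577 against 7690 and 8019 in CD8 T cells. The part of this in the order was not tested. Without iKO sample 1 the number of the 8 genes called in monocyte/macrophages was 2, without iKO sample 2 it was 2, without control sample 2 or control sample 4 it was 1, and without control sample 3 it was 4. The log2 differences themselves moved little, from 1.31 to 1.72 for Parp14 and from 1.13 to 1.52 for Dtx3l, and Parp12 was called in all 8 such fits. Split by C1q genes, a division added after the data were seen, 7 genes were called in C1q-negative cells, beside 7.32% of all genes called higher there, and 1, Parp12, in C1q-positive cells, beside 1.58%. Cells with a UMI of only 1 of the 3 C1q genes are in neither set. The C1q-positive share of monocyte/macrophages was 38.1% to 39.9% in iKO and 44.0% to 52.0% in control samples. Parp14, for which C1q-positive cells gave an adjusted p of 0.0698, differed by 1.33 ± 0.35 there and by 1.56 ± 0.26 in C1q-negative cells.

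**Figure D2:**
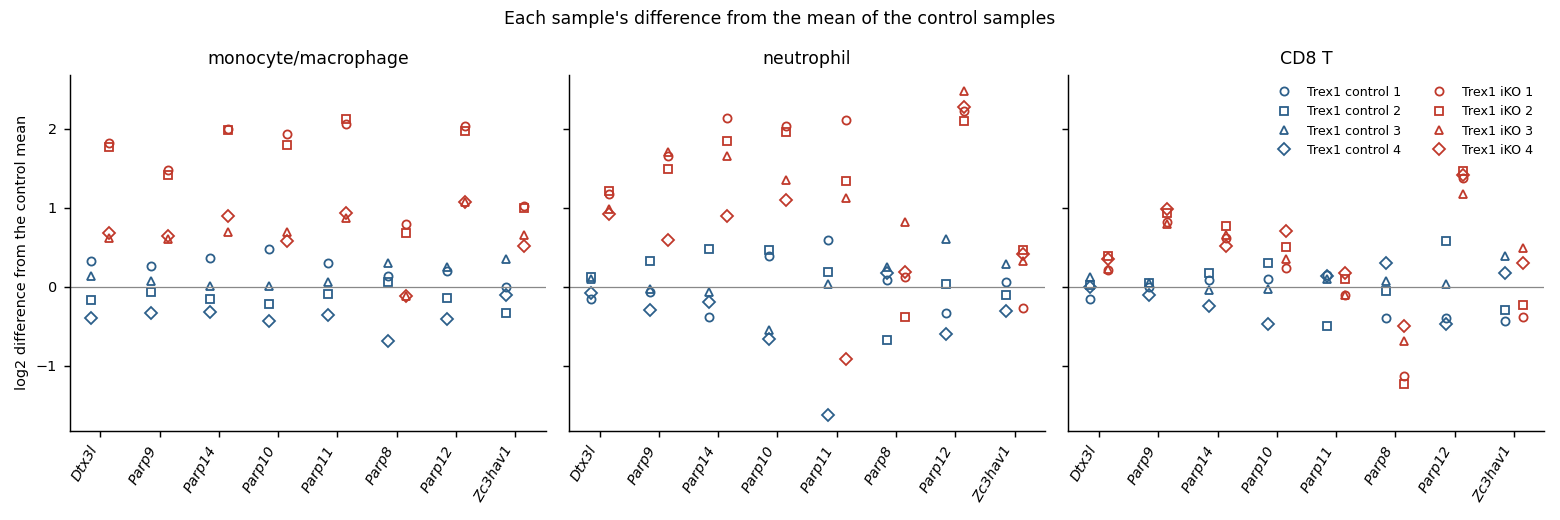
Each sample's log2 difference (y axis) from the mean of the 4 control samples for the 8 genes (x axis) in monocyte/macrophages, neutrophils and CD8 T cells; blue symbols are control and red symbols iKO samples, with 1 symbol shape per sample number. In monocyte/macrophages iKO samples 1 and 2 lay above iKO samples 3 and 4 for all 8 genes, and in CD8 T cells for none.

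In neutrophils, 5 of the 8 genes were higher in iKO, beside 2.44% of all 5287 genes tested, and none was lower, beside 0.189%; Parp11 did not pass the filter on low counts. Parp12 had 37.8, 34.6, 45.2 and 39.2 CPM in iKO and 6.42, 8.32, 12.3 and 5.34 CPM in control samples, so that every iKO sample was far above every control sample. Its difference, 2.31 ± 0.31 (adjusted p = 0.00107), was the largest of these genes in any type tested. Parp10, subject to the overlap with Plec, had 80.4, 76.1, 49.98 and 42.1 CPM in iKO and 25.7, 27.1, 13.4 and 12.5 CPM in control, again with no overlap, beside 4.77% of all genes with every iKO sample above every control sample (1.64 ± 0.32, adjusted p = 0.0147).

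The 3 neighbours of chromosome 16 rose in neutrophils as well. Parp14 went from 67.8 ± 18.7 to 220 ± 71.8 CPM (1.68 ± 0.28, adjusted p = 0.0045), Parp9 from 24.1 ± 4.43 to 64.6 ± 19.4 CPM (1.39 ± 0.27, adjusted p = 0.0149) and Dtx3l from 42.0 ± 3.94 to 88.6 ± 8.36 CPM (1.07 ± 0.19, adjusted p = 0.0074; SD, n = 4 throughout). Zc3hav1 (0.30 ± 0.21, adjusted p = 0.595) and Parp8 (0.20 ± 0.32, adjusted p = 0.837) did not pass. Parp12, Parp14 and Dtx3l were called without any 1 sample. Parp9 lost its call without iKO sample 3 or control sample 4, and Parp10 without control sample 3 or control sample 4 (adjusted p up to 0.0751 and 0.0648), which left 3 of the genes called without control sample 4. Neutrophils of iKO samples were few, 37 to 128 cells a sample against 210 to 383 in control. With library sizes left as summed counts the median of all genes moved from 0.0019 to -0.17 and 3 genes were called.

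In CD8 T cells, 3 of the 8 genes were higher, beside 1.39% of all 9397 genes tested. Parp9 was at 61.3, 66.0, 59.8 and 68.3 CPM in iKO and 34.6, 35.7, 35.8 and 32.2 CPM in control samples, with narrow groups far apart (0.88 ± 0.10, adjusted p = 0.00174). Parp12 was at 11.8, 12.6, 10.3 and 12.2 CPM in iKO and 3.46, 6.81, 4.67 and 3.30 CPM in control (1.40 ± 0.23, adjusted p = 0.0111). Parp14 was at 117, 130, 120 and 109 CPM in iKO and 80.6, 85.9, 74.2 and 64.3 CPM in control (0.64 ± 0.11, adjusted p = 0.0152). For none of the 3 genes did the groups overlap, and in 5.94% of all genes every iKO sample was above every control sample. Parp9 was called without any 1 sample, Parp12 lost its call without iKO sample 2 (adjusted p = 0.0693) and Parp14 without iKO sample 2 or control sample 3 (up to 0.0872), which left 1 of the genes called without iKO sample 2.

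Dtx3l, the partner of Parp9, differed by 0.31 ± 0.10 in CD8 T cells and did not pass (adjusted p = 0.162), with 69.4, 78.3, 70.1 and 76.2 CPM in iKO all above 53.8, 60.4, 65.3 and 59.4 CPM in control. Zc3hav1 was at 158 ± 45.2 CPM in iKO and 149 ± 39.9 CPM in control CD8 T cells (0.08 ± 0.23, adjusted p = 0.891), and Parp11 at 15.2 ± 1.51 and 15.0 ± 2.89 CPM (0.02 ± 0.17, adjusted p = 0.991), both with overlapping groups. Parp8 was the one gene with lower values in iKO, at 15.9, 14.9, 21.8 and 24.7 CPM against 26.5, 33.6, 36.8 and 42.9 CPM in control, and the groups did not overlap. Every iKO sample was below every control sample for 408 of the 9397 genes tested in CD8 T cells. Its difference of -0.89 ± 0.21 missed the threshold (adjusted p = 0.0582), so that none of the 8 genes was called lower, beside 0.809% of all genes. With the replicate number as a block, Parp8 was called lower (-0.88, adjusted p = 0.0023), and DESeq2 gave -0.89 with an adjusted p of 0.0085. The call was also made without a low-count filter, without iKO sample 4 and without control sample 1.

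Among the other lymphocytes fewer genes were tested, since low counts kept Parp10 and Parp12 out in CD4 T cells, Parp8 in Treg and Parp8, Parp10, Parp11 and Parp12 in B cells. In CD4 T cells 3 genes were higher, beside 1.86% of all genes. Parp9 had 108, 136, 59.2 and 77.4 CPM in iKO and 44.3, 34.0, 39.8 and 43.8 CPM in control (1.27 ± 0.24, adjusted p = 0.0088), and Parp14 231, 291, 209 and 162 CPM in iKO and 120, 124, 110 and 142 CPM in control (0.86 ± 0.18, adjusted p = 0.0139). Dtx3l went from 78.8 ± 19.3 to 149 ± 46.6 CPM (0.96 ± 0.24, adjusted p = 0.0373). All 3 were higher in every iKO sample than in any control sample, beside 4.25% of all genes. Parp9 was called without any 1 sample and Dtx3l in 2 of the 8 fits without 1 sample; without iKO sample 2 or control sample 3, Parp9 alone was called. Parp11 was at 55.5, 49.4, 23.7 and 29.6 CPM in iKO and 16.3, 25.9, 12.8 and 14.6 CPM in control and did not pass (1.19 ± 0.33, adjusted p = 0.0733). None was lower, beside 0.957%.

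In Treg, Parp12 alone was higher, 1 gene beside 0.759% of all genes, and none was lower, beside 0.901%. Parp12 had few UMIs there, 83 over the iKO and 13 over the control samples. It was at 31.3, 35.2, 19.1 and 22.0 CPM in iKO and 6.04, 7.35 and 7.51 CPM in the 3 control samples with enough cells (1.95 ± 0.39, adjusted p = 0.0245). That call was lost with the replicate block, with DESeq2 and in 4 of the 7 fits that left a single sample out, of which a pair left out an iKO sample (1 or 2) and the others a control (2 or 3). In B cells Parp14 had 146, 209, 204 and 158 CPM in iKO and 37.6, 76.9, 81.2 and 65.9 CPM in control and was the 1 gene called higher, beside 2.08% (1.26 ± 0.20, adjusted p = 0.000366). Every iKO sample was above every control sample, as for 150 of the 3126 genes tested in B cells, and the call held without any 1 sample. Zc3hav1 differed by -0.17 ± 0.18 in B cells (adjusted p = 0.755), and none of the genes was lower, beside 0.992%.

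Other T cells, with no UMI of Cd4, Foxp3 or Cd8 genes or with UMIs of more than 1 subset, are a mixture, and all 8 genes were tested in them. Of these 4 were higher in iKO, beside 11.0% of all 7885 genes tested, and 1 was lower, beside 10.9%. Parp8 had 14.7, 21.2, 20.7 and 20.4 CPM in iKO and 49.1, 42.4, 35.9 and 38.2 CPM in control samples, with every iKO sample far below every control sample, and fell by 1.11 on the log2 scale (SE 0.18, adjusted p = 0.00146). The same layout, every iKO sample below every control sample, was found for 906 of the 7885 genes tested. In the main edgeR fits none of the 8 genes was called lower in any other type. Parp8 was called lower in CD8 T cells only under the alternatives given above. Parp9 went from 38.6 ± 8.71 to 78.3 ± 6.03 CPM (1.01 ± 0.16, adjusted p = 0.00108), Parp14 from 91.1 ± 14.0 to 165 ± 12.3 CPM (0.86 ± 0.12, adjusted p = 0.000728) and Parp12 from 7.96 ± 3.40 to 20.6 ± 2.59 CPM (1.36 ± 0.27, adjusted p = 0.00413; SD, n = 4 throughout). These 3 genes had no overlap of the groups, beside 11.1% of all genes with every iKO sample above every control sample, and they and Parp8 were called without any 1 sample.

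Dtx3l rose by 0.57 ± 0.16 in other T cells (adjusted p = 0.0202), with 1 control sample within the range of iKO, and was called in 3 of the 8 fits without 1 sample, with adjusted p up to 0.0692. Zc3hav1 (-0.0098 ± 0.16, adjusted p = 0.975), Parp10 (0.14 ± 0.21, adjusted p = 0.683) and Parp11 (0.46 ± 0.21, adjusted p = 0.134) did not pass. Markers of the subsets differed in this mixture, with Foxp3 at 123 to 137 CPM in iKO and 28.6 to 88.5 CPM in control, Cd8a at 54.6 to 366 and 31.3 to 178 CPM and the gamma-delta receptor gene Trdc at 45.9 to 116 and 80.7 to 131 CPM. The part of this makeup in the differences was not tested.

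In dendritic cells no gene of the 8 passed edgeR's test. In cDC2, of which 1 iKO sample had too few cells, 0 were called higher, beside 0.131% of all genes, and 0 lower, beside 0.056%. There 4 genes had an unadjusted p under 0.05, beside 9.31% of all genes, Parp12 (1.35 ± 0.47), Parp9 (1.16 ± 0.40), Parp14 (1.10 ± 0.37) and Dtx3l (0.87 ± 0.31). The iKO samples were uneven, with Parp14 at 240, 286 and 83.9 CPM against 111, 76.0, 129 and 59.7 CPM in control. In mature DC 0 were called, beside 0.744% higher and 0.254% lower of all genes. There 5 genes had an unadjusted p under 0.05, beside 13.2% of all genes, with Parp9 at 111, 104, 59.7 and 59.5 CPM in iKO, all above the 41.8, 41.1, 43.9 and 46.0 CPM of control (0.92 ± 0.23, adjusted p = 0.0721). Of the 5509 genes tested in mature DC, 209 had every iKO sample above every control sample. Without a low-count filter 4 genes were called in each of these 2 types, and DESeq2 called 0 in cDC2 and 1 in mature DC. Samples of cDC2 held 16 to 39 cells and samples of mature DC 35 to 105.

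**Figure D3:**
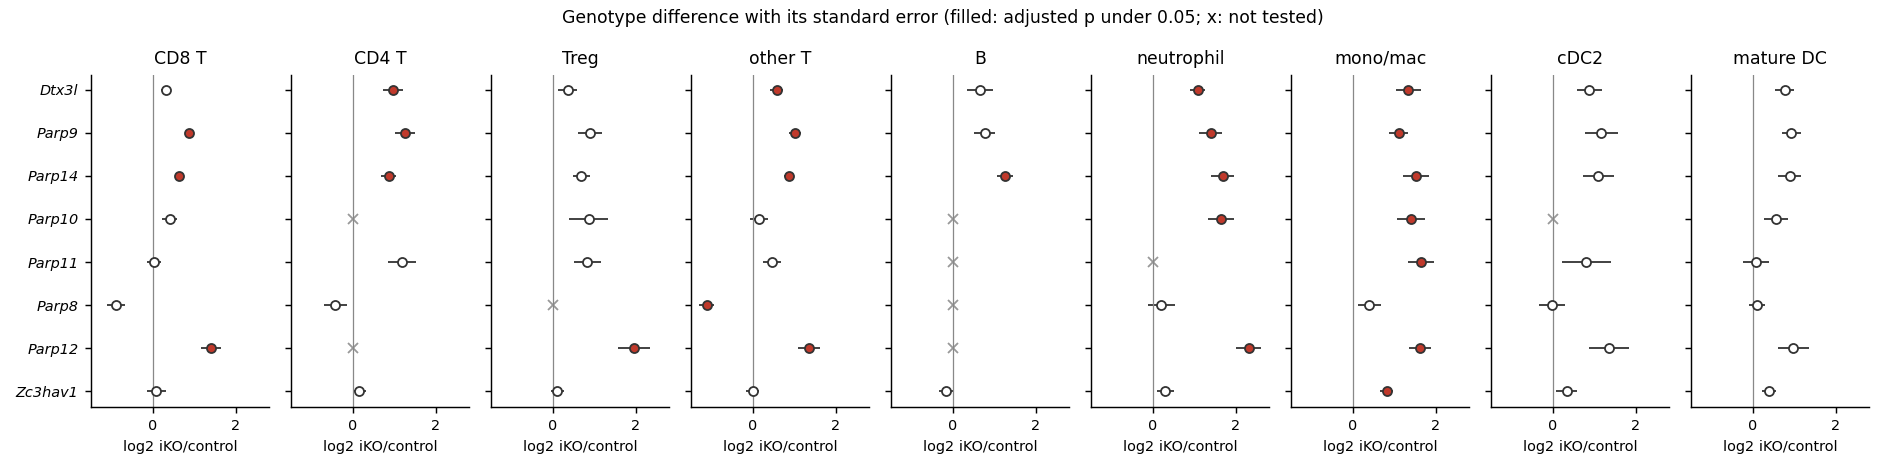
Log2 difference of iKO over control (x axis) with its standard error for the 8 genes (rows) in 9 gated cell types (panels). Red points passed an adjusted p of 0.05, open points did not, and a cross marks a gene that did not pass the filter on low counts; in monocyte/macrophages 7 of 8 points are red, in CD8 T cells 3, in other T cells 5 and in cDC2 and mature DC none.

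By gene, Parp14 was higher in 6 of 9 types, Parp9 in 5 of 9, Parp12 in 5 of the 7 in which it was tested, Dtx3l in 4 of 9, Parp10 in 2 of 6, Parp11 in 1 of 7, Zc3hav1 in 1 of 9 and Parp8 in 0 of 7, with 1 type in which it was lower. A call in one type and not in another does not show that the effects differ, and the difference itself was tested for 3 pairs of types. Between CD8 T cells and monocyte/macrophages all 8 differences of the genotype effect were below 0, and none of the 8 genes passed, beside 0.0655% of all genes. Parp11 was the nearest, with an effect smaller by 1.58 ± 0.34 in CD8 T cells (adjusted p = 0.134), then Parp8 (-1.29 ± 0.41, adjusted p = 0.237) and Dtx3l (-0.96 ± 0.30, adjusted p = 0.234). Parp11 passed with DESeq2 and without a low-count filter. Parp12 (-0.21 ± 0.34, adjusted p = 0.82) and Parp9 (-0.17 ± 0.23, adjusted p = 0.779) had the differences nearest to 0. None passed between neutrophils and monocyte/macrophages, beside 0.106%, where Zc3hav1 differed by -0.53 ± 0.26 (adjusted p = 0.633) and Parp12 by 0.75 ± 0.37 (adjusted p = 0.648), nor between B and CD8 T cells, beside 0.15%, where Parp14 differed by 0.68 ± 0.26 (adjusted p = 0.612).

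The ratio of Dtx3l to Parp9 UMIs was examined after the values were seen and is given with no test. Capture of transcript ends differs between genes, so that only the same ratio in different samples can be compared. In CD8 T cells it was 1.13, 1.19, 1.17 and 1.12 in iKO and 1.56, 1.69, 1.83 and 1.85 in control samples, on at least 116 Dtx3l and 99 Parp9 UMIs per iKO sample and 72 and 39 per control sample. Every control sample lay above every iKO sample. In monocyte/macrophages it was 1.45, 1.46, 1.16 and 1.18 in iKO and 1.20, 1.06, 1.20 and 1.10 in control samples, and the groups overlapped. In neutrophils it was 1.49 ± 0.50 in iKO and 1.77 ± 0.24 in control (SD, n = 4), and in B cells 1.15 ± 0.47 and 1.14 ± 0.17, both with overlap. The mean was also lower in iKO in other T cells (1.17 against 1.71), Treg (1.329 against 1.875) and CD4 T cells (1.65 against 1.97). The same held in cDC2 (1.18 against 1.40) and mature DC (1.31 against 1.48), and in these 5 types the groups overlapped. In cDC1, 3 iKO samples (0.89 to 1.16) lay below 2 control samples (1.18 to 1.38).

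**Figure D4:**
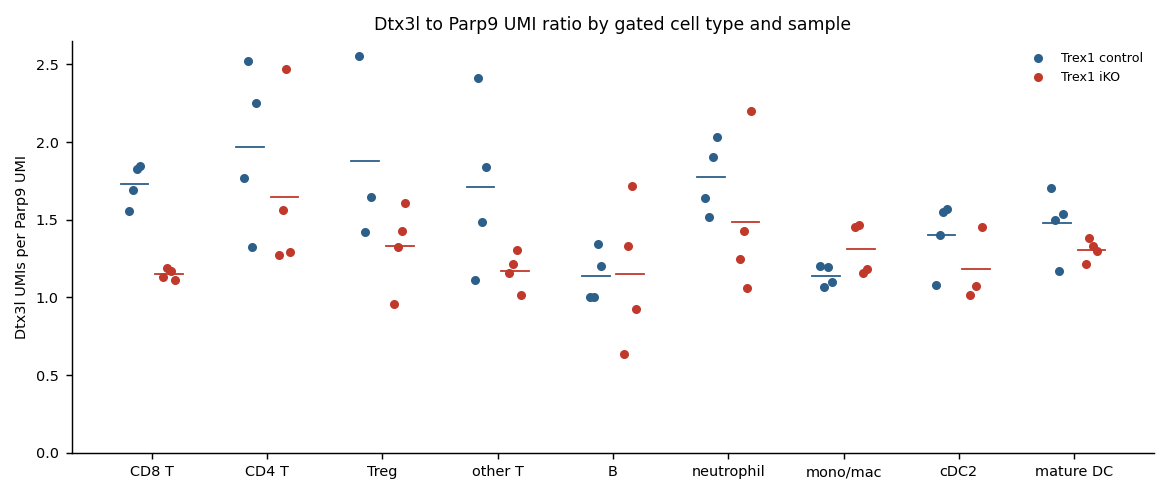
Dtx3l UMIs per Parp9 UMI (y axis, linear, from 0) in 9 gated cell types (x axis); each point is 1 sample of Trex1 control (blue) or Trex1 iKO (red) and each bar the group mean. In CD8 T cells the iKO samples (1.12 to 1.19) lay below the control samples (1.56 to 1.85).

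Over all kept cells of a sample, 5 of the 8 genes were higher in iKO, beside 1.8% of all genes, and none was lower, beside 0.887%. Parp12 rose by 1.50 ± 0.11 (adjusted p = 0.000715), Parp14 by 1.18 ± 0.17 (0.0104), Parp9 by 0.96 ± 0.14 (0.0106), Parp10 by 0.99 ± 0.20 (0.045) and Dtx3l by 0.85 ± 0.17 (0.0426), all by edgeR. With the replicate number as a block, Parp11 was called as a sixth (0.89, adjusted p = 0.0092). In such sums a change in the number of cells of a type and a change in RNA per cell cannot be told apart, and types made up different shares of iKO and control samples, with 3732 CD8 T and 332 neutrophils of 13531 kept iKO cells against 942 and 1026 of 8959 control cells. Without iKO sample 1, iKO sample 2 or control sample 4, 3 genes were called, and without control sample 2 only Parp12.

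In the types with too few cells for a test the values were single or few. In cDC1, Parp12 was at 70.1, 87.8 and 45.3 CPM in 3 iKO samples and 19.3 and 25.1 CPM in 2 control samples. In NK cells Parp10 was at 27.7 and 29.3 CPM in 2 iKO and 13.8 and 9.50 CPM in 2 control samples. These Parp10 values rest on 19 UMIs in iKO and 5 in control, so that counting error is large. Parp14 in NK cells was at 111 and 183 CPM in iKO and 96.8 and 114 CPM in control, with overlap. How many of all genes lay apart by genotype in these types was not computed. Plasmacytoid DC, a main source of type I interferon, had enough cells in 1 sample per genotype. Parp9 was at 70.8 CPM in iKO and 22.6 CPM in control (19 and 8 UMIs). Parp12 was at 3.72 and 2.83 CPM, which is 1 UMI in each sample.

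Genes around these 8 were taken from lists. Of 9 other PARP family members, among them the DNA-repair enzyme Parp1, none was called over all cells or in 8 of the 9 types, and in other T cells Parp2 was higher and Parp6 lower, 2 genes named after their values were seen; in monocyte/macrophages all 9 were tested, with a median difference of 0.00. Of 6 genes for removal of ADP-ribose, 1 was called in 1 type, the macrodomain hydrolase Macrod1, lower in monocyte/macrophages (-1.18 ± 0.23, adjusted p = 0.0174) at a low level of 3.30 CPM in control and 1.49 CPM in iKO. Of the partners of ZAP and of the Dtx3l and Parp9 complex, Trim25, which ZAP needs for its antiviral action, was higher in CD8 T cells (0.65 ± 0.13, adjusted p = 0.0302) and in other T cells (0.66 ± 0.17, adjusted p = 0.0159), where Zc3hav1 was not called. The partners Khnyn, N4bp1, Zc3hav1l, Stat6 and Dtx3 were called in no type. For scale, 6 interferon-induced reference genes, which earlier results had shown to be higher, had median differences of 2.12 in CD8 T cells (5 of 6 called) and 2.45 in monocyte/macrophages (5 of 6 called), beside medians of 0.36 and 1.37 for the 8 genes in those types. Irf7, a transcription factor of the interferon response, went from 111 ± 39.4 to 832 ± 389 CPM in monocyte/macrophages (2.91 ± 0.40, adjusted p = 0.00602). Ifit1, whose protein binds foreign RNA, went from 10.9 ± 5.06 to 59.3 ± 10.3 CPM in CD8 T cells (2.27 ± 0.26, adjusted p = 0.00181; SD, n = 4).

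Likeness of pattern was measured as Pearson's r of log2 CPM over 81 profiles of type and sample among 10578 genes, a description in which profiles share samples and depth. Dtx3l was the gene most like Parp9 (r = 0.82), and Parp9 the most like Dtx3l. Zbp1 (0.78) was also near Parp9, and Herc6 (0.78) near Dtx3l. Parp14 was most like Zbp1 (0.83), Xaf1 (0.83) and Ifit3 (0.81), and Parp12 like Ifi211 (0.85), Phf11d (0.82) and Trafd1 (0.82). Parp10 was nearest to Ifit1 (0.69), Rtp4 (0.68) and Ifit3 (0.68), and Parp11 to Gbp5 (0.66) and, lower, H2-K1 (0.64). Zc3hav1 had other neighbours, Peli1 (0.80), Dgka (0.78) and Rnf125 (0.78), as had Parp8, with Cpne3 (0.72), Trio (0.68) and Tbc1d8 (0.68). Among the 8 genes themselves, r was 0.77 between Parp14 and Dtx3l and 0.75 between Parp14 and Parp9, while Parp8 was at -0.47 with Zc3hav1 and -0.24 with Parp14.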

How the data were processed

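Single-cell 3′ RNA libraries were made from sorted leukocytes of 4 Trex1 iKO and 4 Trex1 control samples. The deposited values are raw UMI counts per gene and barcode. Cell Ranger 7.1.0 and GRCm39 are named in the submitters' processing notes, and how strand and introns were handled in counting is not given in the sources used here. Each sample was taken from the hashtag in its own deposited matrix.

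Of 23731 barcodes, 22490 with at least 300 genes and at most 10% mitochondrial counts were kept. A cell was assigned to a type by the number of fixed markers with a UMI (4 of 7 for T lineage, 5 of 12 for monocyte/macrophages, 5 of 9 for neutrophils, 3 of 7 for B cells and 4 of 7 for dendritic cell types), and T cells were split by Cd8a or Cd8b1, Foxp3 and Cd4, with the remainder kept as other T cells. The numbers of markers needed were set from the markers' UMIs, without the values of the 8 genes. There was no clustering and no doublet caller, cells with markers of 2 lineages were left out, and 45 barcodes occurred in both pools.

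Counts were summed per sample and type where at least 20 cells were present, and types with at least 3 samples per genotype were tested with edgeR 4.0.16 (quasi-likelihood test, TMM, filterByExpr, Benjamini-Hochberg adjustment over all genes tested) in R 4.3.3. Samples held 17111065 to 96457227 UMIs, and genes with few UMIs in a type have the largest counting error. On simulated counts with 200 genes changed 4-fold, 93.5% were recovered in CD8 T cells, 94.5% in monocyte/macrophages and 93.5% in neutrophils. Of the genes called there, 3.109%, 5.025% and 3.109% were unchanged ones. Nearly all differences of the 8 genes were smaller than 4-fold, and the recovery of such smaller changes was not measured. Replicates of a group differed by more than sampling noise in every pair, so none was a repeated library. Alternatives were DESeq2 1.42.0, other scalings, filters and gates, the replicate number as a block and leaving out each sample.

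Labels do not say that samples with 1 number share a litter or day. In all-cell profiles the deviations of same-numbered samples were correlated at 0.56, 0.27, 0.12 and 0.60. The main genotype fits did not use the numbers, also there, so their p-values are unpaired. A fit with the replicate number as a block was run as an alternative. In CD8 T cells the correlations were 0.64, 0.04, 0.23 and 0.34, and in monocyte/macrophages 0.25, -0.12, -0.03 and 0.21, where not every pair reached 0.1.

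The 8 genes and the gene lists were chosen with earlier results of these data known. All 8 genes are reported in each profile. Of the other lists the counts called are given, with at most 4 genes called in monocyte/macrophages, CD8 T cells or all cells by name, and for each of the 8 genes the 3 genes of highest correlation. One gene of the partner list, which this rule also names among the highest correlations, is not reported here, nor are counts of that list.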

Additional observations from a re-analysis of the deposited data

Results flagged for a closer look

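In 144 groups of 4 samples (1 gene in 1 type and genotype) 5 samples stood apart from the rest of their group by Dixon's test, which compares the gap to the nearest other sample with the group's whole range. Chance alone does so in about 1 in 20 such groups. Parp11 was at 10.64 CPM in CD8 T cells of control sample 2, below the other 3 control samples at 16.07 to 16.61 CPM, a gap of 0.91 of the range. Parp12 was at 14.14 CPM in CD4 T cells of control sample 3, above the others at 6.467 to 7.389 CPM (0.88 of the range). Parp10 was at 41.37 CPM in Treg of iKO sample 1, above the others at 19.11 to 21.9 CPM (0.875 of the range). In other T cells Parp8 was at 14.65 CPM in iKO sample 1, below the others at 20.37 to 21.24 CPM (0.869 of the range), and Dtx3l at 82.42 CPM in control sample 2, above the others at 56.55 to 57.09 CPM (0.979 of the range).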

How the results depend on the processing

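Of 1849 recomputed log2 differences of single genes, 1662 kept their direction and their side of the threshold, 85 lost a call, 48 gained one and 54 changed sign, none of them of a difference called at first. The cause of these changes was not tested. The single-gene calls in types with few cells and in 1 droplet pool per genotype are limited by the 4 samples of each genotype and by few UMIs where genes missed the low-count filter. Most counts of genes called moved with single samples, and no difference between types in the genotype effect was called for any of the 8 genes in the main analysis, beside 1 with DESeq2.

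Counts of the 8 genes called moved as follows. Without a low-count filter the counts called higher were 5 in CD4 T cells, 3 in Treg, 4 in cDC2 and 4 in mature DC, 1 gene (Parp8) was called lower in CD8 T cells, 1 differed in effect between CD8 T cells and monocyte/macrophages, and 2 were lower in level in B than in CD8 T cells. With DESeq2 the counts were 1 lower in CD8 T cells, 0 higher in Treg, 1 higher in mature DC, 1 different in effect between CD8 T cells and monocyte/macrophages, 1 higher in level in CD8 T cells than in monocyte/macrophages and 0 lower in B than in CD8 T cells. In the paired fit with the replicate block, 1 was lower in CD8 T cells (Parp8, -0.88), 0 were higher in Treg and 2 in mature DC, 6 were called over all cells, and no other count of calls by genotype moved by over 1.5 times. With summed counts alone as library size, 3 were higher in neutrophils, 4 were higher in level in CD8 T cells than in monocyte/macrophages and 2 lower in neutrophils than in monocyte/macrophages. A gate with 1 marker more gave 0 in Treg and 1 in cDC2, and C1q-positive monocyte/macrophages, chosen after seeing the data, gave 1. For lower levels in B than in CD8 T cells the count was 2 with DESeq2's size factors and 2 without the 5% of cells with the most UMIs. With cells of 2 lineages kept it was 0, and 1 gene was higher in level in CD8 T cells than in monocyte/macrophages.

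Leaving out each sample in turn, the count called higher ran from 1 to 5 over all cells, 1 to 3 in CD8 T cells, 1 to 3 in CD4 T cells, 0 to 2 in Treg, 3 to 5 in neutrophils, 1 to 7 in monocyte/macrophages, 0 to 3 in cDC2 and 0 to 3 in mature DC, and the count lower in CD8 T cells from 0 to 1. Counts by level ran from 1 to 3 higher in CD8 T cells than in monocyte/macrophages and from 0 to 3 lower in B than in CD8 T cells.

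Among sign changes of genotype effects, all small, Parp11 in CD8 T cells was -0.0058 over all deposited barcodes and -0.11 to 0.11 without 1 sample. Zc3hav1 was -0.074 to 0.24 without 1 sample in CD8 T cells, and in Treg -0.040 without the 5% of cells with the most UMIs and -0.027 to 0.24 without 1 sample. In other T cells Zc3hav1 was 0.031 with summed counts, 0.044 without a filter, 0.0018 with the replicate block, 0.037 without the cells with the most UMIs and -0.14 to 0.075 without 1 sample, and Parp10 -0.042 to 0.29 without 1 sample. Parp8 in cDC2 was 0.0028 with summed counts, 0.034 without a filter, 0.0013 without the cells with the most UMIs, 0.078 with cells of 2 lineages kept and -0.33 to 0.25 without 1 sample. Without 1 sample Parp8 ran from -0.046 to 0.40 in neutrophils and from -0.0050 to 0.21 in mature DC, and Parp11 from -0.14 to 0.27 in mature DC. Of differences of effects with cells of 2 lineages kept, Parp12 was 0.0015 between CD8 T cells and monocyte/macrophages, Parp8 0.14 between neutrophils and monocyte/macrophages and Parp11 -0.10 between B and CD8 T cells. Without 1 sample Parp12 ran from -0.45 to 0.12 in the first pair, and in the second Parp8 from -0.54 to 0.17 and Parp14 from -0.049 to 0.44. In the B and CD8 T pair the same fits gave -0.34 to 0.73 for Parp8, -0.088 to 1.00 for Parp10, -0.14 to 0.55 for Parp11, -0.37 to 1.12 for Parp12 and -0.37 to 0.0046 for Zc3hav1.

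Among levels in control samples, Parp10 was 0.066 between CD8 T cells and monocyte/macrophages with summed counts and -0.37 to 0.028 without 1 sample, and Parp8 there -0.022 to 0.46. Between neutrophils and monocyte/macrophages Parp8 was -0.0026 with summed counts, Parp9 0.031 with the stricter gate and -0.16 to 0.072 without 1 sample, Parp11 -0.38 to 0.10 and Parp14 -0.37 to 0.075. Between B and CD8 T cells Parp14 was 0.083 with cells of 2 lineages kept and -0.29 to 0.057 without 1 sample.

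Counts over all genes also moved. The 1302 genes called in monocyte/macrophages became 372 without iKO sample 2 and 1997 with DESeq2, the 1732 in other T cells 991 without iKO sample 1 and 2070 without a low-count filter, the 207 in CD8 T cells 94 without iKO sample 2 and 1066 with the replicate block, and the 364 over all cells 115 without control sample 2 and 1416 with DESeq2. Without a low-count filter the counts rose from 147 to 293 in CD4 T cells, 105 to 325 in Treg, 96 to 155 in B cells, 139 to 329 in neutrophils, 10 to 237 in cDC2 and 55 to 342 in mature DC. Their lowest values without 1 sample were 79, 8, 65, 77, 2 and 13.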
